A study of Homo sapiens with 12 samples.

Results

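The genes described here encode the nuclear part of the mitochondrial respiratory chain and ATP synthase, measured by bulk RNA sequencing in stem cell-derived pancreatic alpha cells with and without endoplasmic reticulum (ER) stress. They were chosen by symbol alone, as names beginning with NDUFA, NDUFB, NDUFC, NDUFS or NDUFV and a digit, the 4 SDH subunit genes, UQCR, COX4 to COX8 and ATP5, with pseudogenes and hyphenated names removed. The rule took 87 of the 28278 gene symbols in the count table. Of these, 36 belong to complex I, 4 to complex II, 9 to complex III, 19 to complex IV and 19 to complex V. NDUFA4 and NDUFA4L2 were counted with complex IV, where their proteins are found, despite their complex I names. A filter on low counts left 81 of the 87 members for testing.

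HUES-8 cells, a widely used line of human embryonic stem cells, had been differentiated toward alpha cells, which secrete glucagon in the pancreatic islet. They received the solvent DMSO or 5 uM tunicamycin for 48 h, in bioreactors of 30 mL stirred at 40 rpm. Tunicamycin is an inhibitor of N-glycan assembly that makes unfolded protein accumulate in the ER. Each group held 6 samples, with samples 1 to 3 in sequencing batch 1 and samples 4 to 6 in batch 2. The labels call them biological replicates without saying whether each was its own differentiation, and p-values therefore reflect the spread among these 12 samples only.

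Complexes I and II feed electrons from NADH and succinate to ubiquinone, complex III passes them to cytochrome c, and complex IV reduces oxygen with them. Complexes I, III and IV pump protons across the inner mitochondrial membrane, and complex V, the ATP synthase, uses the returning protons to make ATP. In islet endocrine cells, mitochondrial ATP couples nutrient supply to hormone release. The mitochondrially encoded subunits of these complexes were not analysed here.

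Libraries held 17523442 to 28872269 counts, and the 87 members together took between 0.592% (tunicamycin 1) and 1.02% (DMSO 5) of them. Beside the alpha cell label, 10 alpha cell markers were looked up, and all 10 passed the filter. All 5 beta cell, 14 mesenchymal and 9 duct and liver markers passed it too, so passing does not tell the cell type. The alpha cell markers summed to 79644 to 118620 CPM (counts scaled to the size of each library) in DMSO samples. In tunicamycin samples their sum was 59048 to 94824 CPM. All 6 unfolded protein response genes used as a check on the treatment rose, with a median log2 fold change of 2.17. In bulk samples, fewer cells of a type and less RNA per cell cannot be told apart. The sample DMSO 5 stood apart before any comparison was made. It had the highest level of all 12 samples for 67 of the 81 tested members, and values without it therefore stand beside the fitted changes of most members described. The same sample had the highest DMSO sum of heart muscle markers, 2507 CPM against 40.1 to 689.5 CPM in the other 5. It also had the highest DMSO sums of beta cell markers (686 CPM) and duct and liver markers (911 CPM). Its alpha cell marker sum (117436 CPM) was second to that of DMSO 2 (118620 CPM). Its mesenchymal marker sum (2377 CPM) was below the highest, 3289 CPM in DMSO 1. The part of these cell types in its high respiratory gene levels was not tested.

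After tunicamycin, transcripts of 6 respiratory genes fell and none rose, by the quasi-likelihood test of edgeR with the batch in the model, at an adjusted p below 0.05. Of the 6, 4 encode parts of ATP synthase (ATP5MF, ATP5IF1, ATP5MPL and ATP5PO) and 2 encode accessory subunits of the membrane arm of complex I (NDUFB1 and NDUFS5). The decreases ran from 26.7% for ATP5PO to 31.4% for ATP5MF. These 6 are 7.41% of the tested members, beside 3.29% of all 17137 genes tested that were called lower. For increases the count was 0 of 81 members beside 4.56% of all genes. At an unadjusted p below 0.05, 38 members (46.9%) were lower, beside 11.2% of all genes, and 1 member (NDUFA4L2) was higher, beside 10.8% of all genes. The members share the same samples, and DMSO 5 was the highest for 67 of the 81, so these p-values are not independent. Unadjusted counts, here and by complex below, were not made without DMSO 5.

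Most other members had fitted changes of the same sign but smaller size. The fitted log2 fold change was below 0 for 75 of 81 members, with a median of -0.30, while the median over all genes tested was -0.01. By complex the medians were -0.31 for complex I, -0.08 for complex II, -0.23 for complex III, -0.32 for complex IV and -0.31 for complex V. Without DMSO 5 the median of the members was -0.20 and 71 of 81 fitted changes were below 0.

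**Figure D1:**
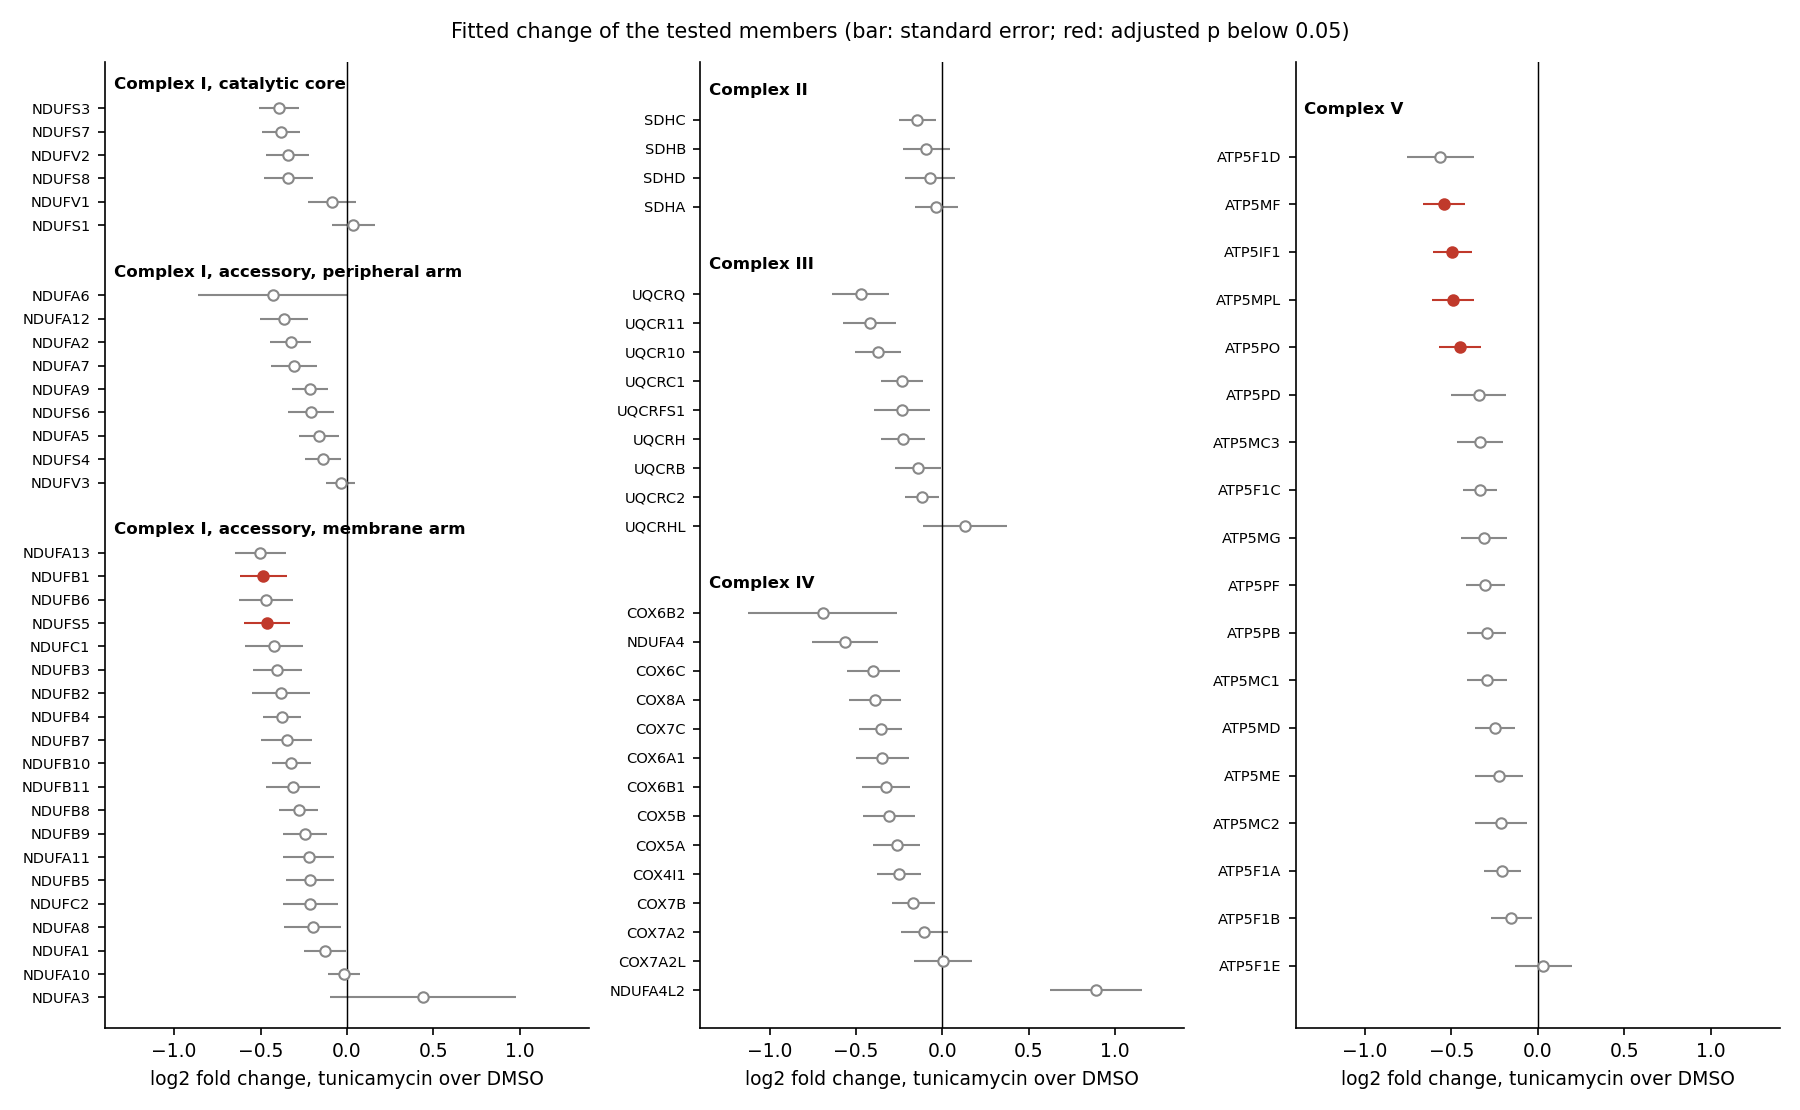
Fitted log2 fold change (x axis, tunicamycin over DMSO) of the tested members, except 1 that is not shown, with bars for the standard error, grouped by complex and, for complex I, by part of the complex. Filled red points are the 6 members with an adjusted p below 0.05. Most points lie left of 0, those of complex II lie close to it, and NDUFA4L2 lies farthest to the right.

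The number of members called depended on the samples and the model used. Without DMSO 5, 3 members were called lower (ATP5IF1, ATP5MF and ATP5MPL), beside 1.98% of 17383 genes. Leaving out DMSO 1 gave 2 calls, beside 2.05% of all genes called lower, and leaving out DMSO 4 gave 11, beside 2.34%. Without tunicamycin 1 or tunicamycin 3 there were 3 calls (2.79% of all genes each). Without tunicamycin 4 or tunicamycin 5 there was 1 call (1.59% and 1.91% of all genes). Samples of equal number were taken as pairs across groups, and with the number as a block 15 members were called lower (7 of complex I, NDUFA4 of complex IV and 7 of complex V) and 1 higher, NDUFA4L2. The same model called 8.4% of all genes lower and 8.92% higher. DESeq2 with batch also called 15 members lower and 1 higher, beside 6.01% and 6.52% of 16735 genes with an adjusted p. The voom method of limma called 4 members lower, all of complex V, and 0 higher, beside 3.03% and 4.63% of genes. Without batch in the edgeR model, ATP5IF1 and ATP5MPL were the 2 members called, beside 2.23% of all genes called lower.

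Summed over each complex, the ranges of the 2 groups overlapped, to an extent that differed between complexes. The summed CPM of the 36 complex I genes was 2228 to 3783 with a median of 2598 in DMSO samples and 1889 to 2560 with a median of 2391 in tunicamycin samples. Complex II genes summed to 211 to 325 CPM (median 254) in DMSO and 215 to 298 CPM (median 254) in tunicamycin samples. Complex III genes summed to 685 to 1199 CPM (median 874) and 639 to 863 CPM (median 792). In none of these complexes were the groups apart, and DMSO 5 held the highest sum in each. Complex IV genes summed to 1161 to 2123 CPM (median 1431) in DMSO and 1051 to 1428 CPM (median 1289) in tunicamycin samples. Complex V genes summed to 1992 to 3266 CPM (median 2470) and 1743 to 2225 CPM (median 2154). In complex V only the lowest DMSO sum lay below the highest tunicamycin sum. Over all 87 members the sum was 7917 ± 1488 CPM in DMSO and 6608 ± 723 CPM in tunicamycin samples (SD, n = 6 each), 16.5% lower. Leaving out DMSO 5 reduced this difference to 10.2%.

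**Figure D2:**
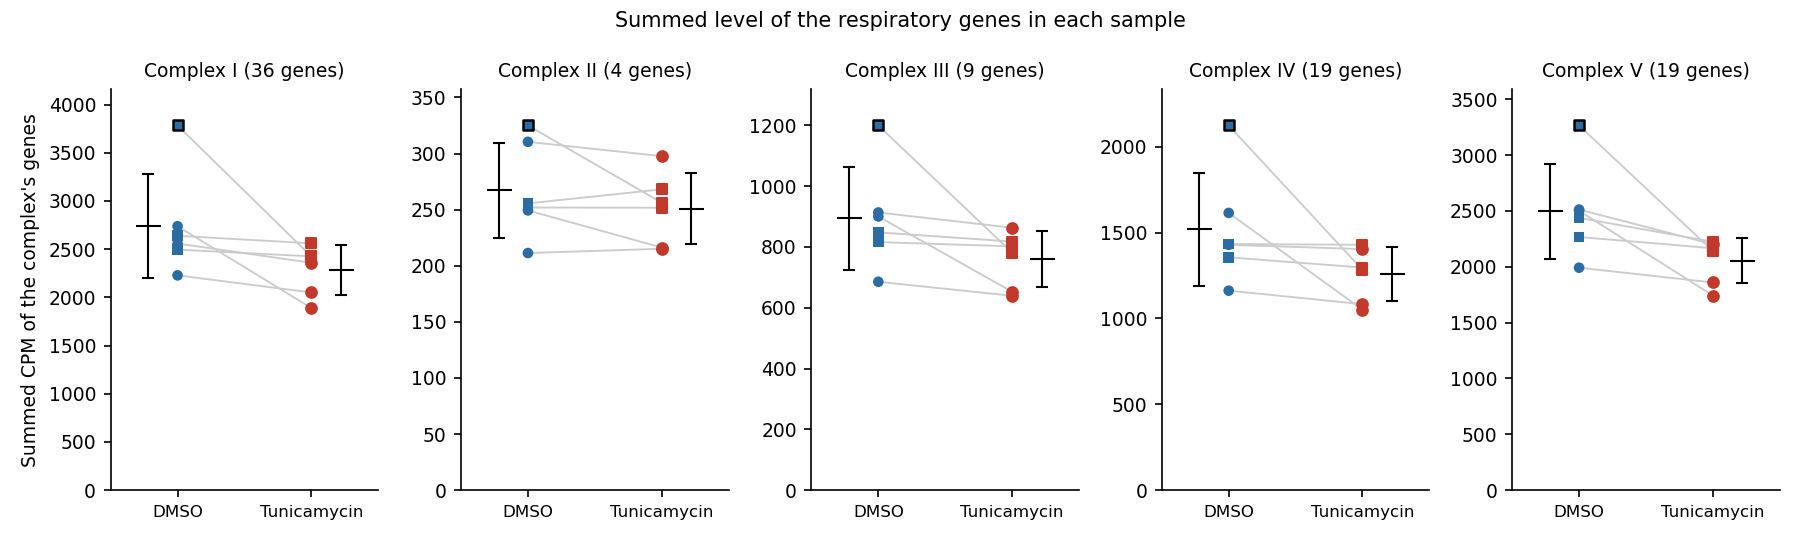
Summed CPM (y axis, from 0) of the genes of each complex in every sample, with lines joining samples of equal number; circles are batch 1, squares are batch 2, and the outlined square is DMSO 5. Bars beside the points give mean and SD of 6 samples. DMSO 5 lies highest in all 5 panels, and the sums of complex II overlap almost fully between the groups.

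Of the called genes, ATP5MF encodes subunit f of the ATP synthase membrane part. Its level was 25.8 to 52.4 CPM (median 40.9) in DMSO and 18.4 to 38.8 CPM (median 26.7) in tunicamycin samples. The groups overlapped, but within each sample number the tunicamycin value was the lower. The log2 fold change was -0.54 ± 0.12 (SE, adjusted p = 0.0133). Without DMSO 5 it was -0.52 (adjusted p = 0.0364), and without batch as a covariate the call was lost (adjusted p = 0.196). ATP5MF lies on chromosome 7 at 99458195 to 99466167 (GRCh38.p14) and shares exons on the same strand with PTCD1 and with a readthrough transcript of both, so its count is uncertain.

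ATP5IF1 is the inhibitor that blocks the ATP synthase when it would run in reverse and hydrolyse ATP. It measured 110 to 182 CPM (median 128) in DMSO and 78.5 to 118 CPM (median 95.2) in tunicamycin samples. The highest tunicamycin sample exceeded only the lowest DMSO sample. ATP5IF1 had a log2 fold change of -0.49 ± 0.12 (adjusted p = 0.0177), and without DMSO 5 of -0.41 (adjusted p = 0.0358). Leaving out tunicamycin 4 or tunicamycin 5 ended the call (adjusted p = 0.0576 and 0.0502).

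ATP5MPL, named ATP5MJ in newer annotations, encodes a small subunit of the membrane part. It was 46.9 to 80.9 CPM (median 52.5) in DMSO and 38.0 to 45.7 CPM (median 40.8) in tunicamycin samples. It was the only tested member whose groups did not overlap, 1 of 81, and over all genes tested 1.3% had every tunicamycin sample below every DMSO sample. Its log2 fold change was -0.49 ± 0.12 (adjusted p = 0.0250), and without DMSO 5 it was -0.37 (adjusted p = 0.0369). The call was lost without DMSO 1, tunicamycin 4 or tunicamycin 5 (0.0638 to 0.0687).

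ATP5PO encodes the oligomycin sensitivity-conferring protein, which links the peripheral stalk to the catalytic head. ATP5PO overlaps exons of AP000311.1 on the same strand and of LINC00649 on the opposite strand, so its count is uncertain. Its level was 66.8 to 120 CPM (median 78.8) in DMSO and 55.1 to 69.9 CPM (median 63.9) in tunicamycin samples. Of the DMSO samples, only the lowest fell within the range of the tunicamycin group. The log2 fold change was -0.45 ± 0.12 (adjusted p = 0.0380). Without DMSO 5 the value was -0.34 and the call was lost (adjusted p = 0.0747), as it was on leaving out DMSO 1 or any single tunicamycin sample (0.0516 to 0.0943).

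NDUFB1 and NDUFS5 are accessory subunits of the complex I membrane arm. NDUFB1 measured 35.8 to 65.3 CPM (median 39.6) in DMSO and 23.7 to 39.0 CPM (median 30.7) in tunicamycin samples. DMSO 5 lay far above the other DMSO samples, whose highest value was 40.9 CPM. The fitted decrease of NDUFB1 gave a log2 fold change of -0.48 ± 0.13 (adjusted p = 0.0418), or -0.35 without DMSO 5 (adjusted p = 0.0775). It also missed the threshold without DMSO 1, DMSO 3 or any of tunicamycin 1 to 5 (0.0538 to 0.109). NDUFS5 measured 112 to 235 CPM (median 169) in DMSO and 85.4 to 155 CPM (median 121) in tunicamycin samples. Its groups overlapped over much of their range, and all 6 number-matched comparisons were lower with tunicamycin. NDUFS5 had a log2 fold change of -0.46 ± 0.13 (adjusted p = 0.0482), and without DMSO 5 of -0.39 (adjusted p = 0.113). Leaving out DMSO 1, DMSO 2, DMSO 6 or any tunicamycin sample ended its call as well (0.0522 to 0.109). The voom method called neither of them (adjusted p = 0.0512 for NDUFB1 and 0.0562 for NDUFS5).

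**Figure D3:**
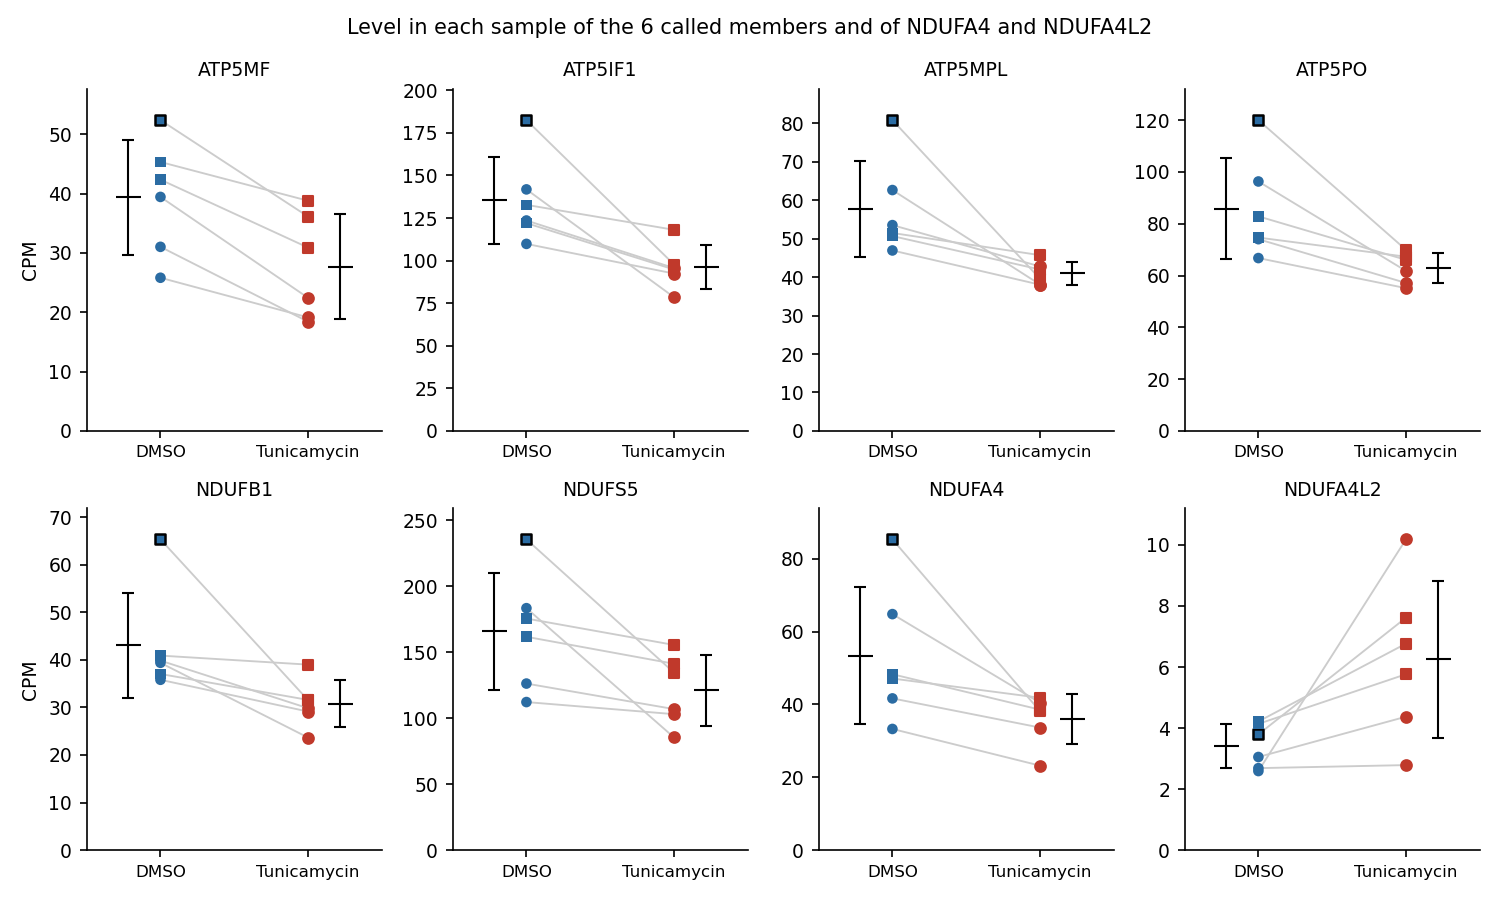
CPM (y axes, from 0) in every sample of the 6 called members and of the paralogs NDUFA4 and NDUFA4L2, with lines joining samples of equal number; circles are batch 1, squares are batch 2, the outlined square is DMSO 5, and bars beside the points give mean and SD of 6 samples. All lines of the first 7 genes slope down and all of NDUFA4L2 slope up; of these, ATP5MPL is the gene whose groups do not overlap.

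Promoters of the called genes are shown because promoters of respiratory genes are known for binding sites of NRF1, ETS family factors and YY1. The 6 genes were picked as lower by the same test in the same samples. Whether they vary together more than other members was not tested. The letters searched on both strands were GCGCANGCG for NRF1, CCGGAAG for ETS factors, AAGATGGC for YY1, TGATGNAA for the composite C/EBP-ATF element that ATF4 can bind, and TGACGTGG for the unfolded protein response element. RefSeq promoters (GRCh38.p14, 250 bases before to 50 after the start) were held for 71 of the 87 members and for 4 of the 6 called. They are ATP5PO (chr21:33915755-33916054, minus strand), ATP5MPL (chr14:103921480-103921779, minus strand), ATP5IF1 (chr1:28235874-28236173, plus strand) and NDUFB1 (chr14:92121657-92121956, minus strand), each written 5′ to 3′ with matches to a searched motif in capitals.
ATP5PO: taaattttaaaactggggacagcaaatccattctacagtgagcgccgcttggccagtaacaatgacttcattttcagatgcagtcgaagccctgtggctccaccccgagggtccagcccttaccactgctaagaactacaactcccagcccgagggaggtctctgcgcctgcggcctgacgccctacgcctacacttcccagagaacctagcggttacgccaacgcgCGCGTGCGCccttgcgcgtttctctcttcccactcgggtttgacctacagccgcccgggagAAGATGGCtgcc
ATP5MPL: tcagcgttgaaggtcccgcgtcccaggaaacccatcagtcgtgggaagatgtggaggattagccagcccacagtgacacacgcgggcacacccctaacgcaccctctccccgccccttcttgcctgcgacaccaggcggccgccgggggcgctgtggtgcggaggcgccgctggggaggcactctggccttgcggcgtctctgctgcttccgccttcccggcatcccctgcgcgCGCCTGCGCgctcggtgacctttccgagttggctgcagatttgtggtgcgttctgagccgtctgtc
ATP5IF1: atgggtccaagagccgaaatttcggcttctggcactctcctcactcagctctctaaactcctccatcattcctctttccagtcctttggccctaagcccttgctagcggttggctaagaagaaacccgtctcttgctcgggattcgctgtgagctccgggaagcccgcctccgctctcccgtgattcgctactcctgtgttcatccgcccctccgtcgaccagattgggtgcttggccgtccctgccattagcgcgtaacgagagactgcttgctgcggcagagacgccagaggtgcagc
NDUFB1: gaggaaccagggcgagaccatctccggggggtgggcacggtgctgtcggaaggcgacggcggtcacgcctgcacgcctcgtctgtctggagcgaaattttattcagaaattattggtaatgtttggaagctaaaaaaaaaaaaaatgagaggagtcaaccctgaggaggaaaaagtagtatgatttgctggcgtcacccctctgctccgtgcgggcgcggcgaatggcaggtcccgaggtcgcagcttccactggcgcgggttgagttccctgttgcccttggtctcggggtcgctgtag
In ATP5PO the capitals mark an NRF1 match on the opposite strand, 23 bases before the start, and a YY1 match that begins 38 bases after it. ATP5MPL has a single NRF1 match 16 bases before the start, and the sequences of ATP5IF1 and NDUFB1 hold none of the 5 searched letter strings. ATP5MF and NDUFS5 were the called members with no entry in the table.

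Across all member promoters, the letters of the known respiratory gene factors were common. The NRF1 letters occurred in 27.1% of 85 member promoters and in 7.52% of 35116 promoters of the same length. The ETS letters occurred in 25.9% and 10.3%, and the YY1 letters in 15.3% and 2.89%. The C/EBP-ATF letters were in 2.35% of member promoters and 3.62% of all, and the unfolded protein response element was in 0 member promoters and 0.729% of all. These shares describe letters in a window and not binding. The median log2 fold change was -0.23 over 22 tested members with NRF1 letters and -0.31 over 46 without. For the ETS letters the medians were -0.31 with and -0.30 without, and for the YY1 letters -0.29 with and -0.31 without. Leaving out DMSO 5, the medians were -0.14 with and -0.21 without the NRF1 letters, -0.20 with and -0.20 without the ETS letters, and -0.19 with and -0.20 without the YY1 letters. No test was made of these differences.

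In complex I, 2 of 36 members were called, beside 3.29% of all genes called lower. Neither was among the 7 subunits of the catalytic core. NDUFS3, NDUFS7 and NDUFS8 lie on the path to ubiquinone. NDUFS3 measured 50.7 to 81.7 CPM (median 54.9) in DMSO and 37.5 to 51.7 CPM (median 46.1) in tunicamycin samples, with a log2 fold change of -0.39 ± 0.12 (adjusted p = 0.0544). NDUFS7 measured 63.5 to 121 CPM (median 76.2) and 46.1 to 79.6 CPM (median 65.0), with a log2 fold change of -0.38 ± 0.11 (adjusted p = 0.0519). Both missed the threshold by little and passed it with the replicate number as a block (0.0232 and 0.0212). The value was -0.34 ± 0.14 for NDUFS8. Without DMSO 5 the log2 fold changes were -0.29 for NDUFS3, -0.30 for NDUFS7 and -0.22 for NDUFS8.

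The 3 core subunits that oxidise NADH gave unlike values. NDUFV2, an iron-sulfur subunit, measured 50.9 to 90.7 CPM (median 65.0) in DMSO and 49.2 to 58.4 CPM (median 54.6) in tunicamycin samples, with a log2 fold change of -0.34 ± 0.12 (adjusted p = 0.117), or -0.23 without DMSO 5. NDUFV1, which carries the flavin, measured 88.0 to 193 CPM (median 112) and 88.4 to 127 CPM (median 115), and its fitted value turned from -0.09 to 0.06 when DMSO 5 was left out. NDUFS1, the largest core subunit, measured 112 to 168 CPM (median 118) and 116 to 165 CPM (median 128), with a log2 fold change of 0.04 ± 0.12 (adjusted p = 0.898), or 0.01 without DMSO 5. The ranges of NDUFV1 and NDUFS1 overlapped almost fully between the groups.

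Among the accessory subunits of complex I, 2 of 20 in the membrane arm were called and 0 of 9 in the peripheral arm. Of all genes, 3.29% were called lower. At an unadjusted p below 0.05, 11 of the 20 and 3 of the 9 were lower, beside 11.2% of all genes. With DESeq2 the counts were 5 and 0, beside 6.01% of genes, and with the voom method 0 and 0, beside 3.03%. The difference between the arms was not tested. NDUFA13, also known as GRIM-19, had the most negative value of complex I. It measured 139 to 344 CPM (median 192) in DMSO and 115 to 187 CPM (median 144) in tunicamycin samples, with DMSO 5 well above the rest. Its log2 fold change was -0.50 ± 0.15 (adjusted p = 0.0540), and without DMSO 5 it was -0.35 (adjusted p = 0.0967). NDUFA13 shares exons with other genes on its strand, which makes its count uncertain. NDUFB4 and, in complex V, ATP5F1C were the remaining members with an adjusted p between 0.05 and 0.06 in the lower direction (0.0570 and 0.0516), and they are named here after their values were seen.

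NDUFA3, a small membrane-arm subunit, was counted at very low levels. It measured 0.514 to 2.67 CPM (median 1.22) in DMSO and 0.422 to 9.55 CPM (median 1.09) in tunicamycin samples. Tunicamycin 4 held the value of 9.55 CPM and the other 5 tunicamycin samples reached at most 1.30 CPM. The fitted log2 fold change was 0.44 ± 0.54, without DMSO 5 it was 0.48, and without tunicamycin 4 it was -0.44.

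Complex II, succinate dehydrogenase, which also serves in the citric acid cycle, showed the smallest fitted changes. Of its 4 members edgeR called 0, beside 3.29% of all genes called lower and 4.56% higher. None of the 4 had an unadjusted p below 0.05, and DESeq2, the voom method and the block model also called 0. SDHA, the flavoprotein, measured 58.4 to 112 CPM (median 85.9) in DMSO and 62.5 to 90.7 CPM (median 86.2) in tunicamycin samples. Its log2 fold change was -0.03 ± 0.12 (adjusted p = 0.908). SDHB, the iron-sulfur subunit, measured 28.7 to 49.8 CPM (median 31.4) and 24.2 to 35.2 CPM (median 33.5), with a log2 fold change of -0.09 ± 0.13. For both genes the tunicamycin median exceeded the DMSO median. The membrane anchors SDHC and SDHD had log2 fold changes of -0.14 ± 0.11 and -0.07 ± 0.15. Without DMSO 5 the median of the complex was 0.02, with values of 0.04 for SDHA, 0.03 for SDHB, -0.13 for SDHC and 0.00 for SDHD. The difference between complex II and the other complexes was not tested.

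Complex III had 0 of 9 members called by edgeR, DESeq2, the voom method or the block model. In that order, these called 3.29%, 6.01%, 3.03% and 8.4% of all genes lower. At an unadjusted p below 0.05 by edgeR, 3 members were lower, beside 11.2% of all genes. The lowest values were those of the small accessory subunits UQCRQ and UQCR11. UQCRQ measured 30.0 to 65.8 CPM (median 35.7) in DMSO and 25.4 to 31.3 CPM (median 30.3) in tunicamycin samples, with a log2 fold change of -0.47 ± 0.17 (adjusted p = 0.105). UQCR11 measured 78.0 to 187 CPM (median 105) and 69.5 to 98.8 CPM (median 87.0), with a log2 fold change of -0.42 ± 0.15 (adjusted p = 0.114). In both genes DMSO 5 held the highest value, and without it the values were -0.28 and -0.26. The Rieske iron-sulfur protein gene UQCRFS1 had a log2 fold change of -0.23 ± 0.16, which became -0.06 without DMSO 5. The core protein genes UQCRC1 and UQCRC2 gave -0.23 ± 0.12 and -0.12 ± 0.10, and without DMSO 5 both gave -0.13. UQCRHL, a copy of UQCRH, was at 2.15 to 5.15 CPM over the 12 samples, and reads of near-identical copies may be split between genes.

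In complex IV, 0 of 14 tested members were called by edgeR or the voom method, beside 3.29% and 3.03% of all genes called lower. At an unadjusted p below 0.05, 6 members were lower (11.2% of all genes) and 1 was higher (10.8%). DESeq2 called 2 lower and 1 higher, beside 6.01% and 6.52% of genes. The block model called 1 lower and 1 higher, beside 8.4% and 8.92%. Genes of accessory subunits around the mitochondrially encoded core gave log2 fold changes of -0.25 ± 0.13 for COX4I1, -0.27 ± 0.14 for COX5A and -0.31 ± 0.15 for COX5B. COX4I1 measured 180 to 357 CPM (median 238) in DMSO and 164 to 253 CPM (median 217) in tunicamycin samples, so that the groups overlapped over most of their range. Without DMSO 5 the values of these 3 genes were -0.15, -0.15 and -0.20.

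The paralogs NDUFA4 and NDUFA4L2 had opposite fitted changes. NDUFA4 encodes a complex IV subunit, and NDUFA4L2 is known as a gene induced in hypoxia. NDUFA4 measured 33.3 to 85.4 CPM (median 47.7) in DMSO and 23.2 to 41.8 CPM (median 38.4) in tunicamycin samples, lower in all 6 number-matched comparisons. Its log2 fold change was -0.56 ± 0.19 (adjusted p = 0.0933), with the block -0.53 (adjusted p = 0.0104) and without DMSO 5 -0.41 (adjusted p = 0.227). NDUFA4L2 measured 2.59 to 4.22 CPM (median 3.42) in DMSO and 2.79 to 10.2 CPM (median 6.26) in tunicamycin samples, higher in all 6 number-matched comparisons. Its log2 fold change was 0.89 ± 0.27 (adjusted p = 0.0596), with the block 0.79 (adjusted p = 0.0382) and without DMSO 5 0.88 (adjusted p = 0.110). NDUFA4L2 overlaps exons of SHMT2 on the opposite strand, and the strand setting of the counting is not given here, so its reads cannot be told from those of SHMT2. Of 9 hypoxia target genes tested, 1 fell (ADM, -0.79 on the log2 scale) and 1 rose (KDM3A, 0.27), with a median of 0.07. With the block 1 of the 9 was called lower and 3 higher, beside 8.4% and 8.92% of all genes. On leaving out DMSO 5 the call of ADM held (adjusted p = 0.0455), that of KDM3A was lost (0.0606), and the median was 0.17.

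Isoforms typical of other tissues were almost absent. COX6A2 and COX7A1, the muscle forms of complex IV subunits, reached at most 0.418 CPM and 0.603 CPM in any sample, and in DMSO 5 both were at 0.187 CPM. COX4I2, a form known from lung, reached at most 0.211 CPM. These 3 genes, ATP5MGL, COX7B2 and COX8C did not pass the filter, and the last 2 had no count in any sample. COX6B2, a testis form, was tested at a mean of 1.27 CPM in DMSO, with a log2 fold change of -0.69 ± 0.43 (adjusted p = 0.384), or -0.86 without DMSO 5. COX7A2L, a factor for the assembly of supercomplexes, measured 107 to 169 CPM (median 127) in DMSO and 98.9 to 197 CPM (median 125) in tunicamycin samples. Its fitted value was 0.00 ± 0.17, or 0.07 without DMSO 5, and took either sign under other scalings and other subsets of samples.

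Complex V held 4 of the 6 calls, 4 of 18 tested members (22.2%), beside 3.29% of all genes called lower. At an unadjusted p below 0.05, 11 of 18 were lower, beside 11.2% of all genes. The genes of the catalytic pair of subunits, ATP5F1A and ATP5F1B, were in neither count. Of the 4 called genes, ATP5PO lost its call without DMSO 5, and all 4 lost it without the samples numbered 1 and 5. ATP5F1A measured 361 to 583 CPM (median 444) in DMSO and 348 to 427 CPM (median 402) in tunicamycin samples, with a log2 fold change of -0.21 ± 0.11 (adjusted p = 0.286). ATP5F1B measured 365 to 550 CPM (median 436) and 357 to 458 CPM (median 415), with a log2 fold change of -0.15 ± 0.12 (adjusted p = 0.496). The tunicamycin samples of both lay within or just below the DMSO range, and without DMSO 5 the values were -0.14 for ATP5F1A and -0.11 for ATP5F1B. ATP5F1D, the delta subunit of the head, measured 51.1 to 119 CPM (median 54.8) in DMSO and 40.3 to 52.8 CPM (median 45.4) in tunicamycin samples. Its log2 fold change of -0.56 ± 0.19 (adjusted p = 0.0955) became -0.33 without DMSO 5 (adjusted p = 0.128). ATP5PF, a stalk subunit, gave -0.30 ± 0.11 (adjusted p = 0.131), with the block -0.29 (adjusted p = 0.0428) and without DMSO 5 -0.26 (adjusted p = 0.259). ATP5F1E, the epsilon subunit, was at 5.85 to 9.11 CPM in all 12 samples and gave 0.03 ± 0.17, or 0.00 without DMSO 5. ATP5F1E overlaps exons of TUBB1 on the opposite strand.

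Levels differed between genes far more than between treatments. Per kilobase of the GENCODE 29 transcript, the DMSO level had a median of 72.9 CPM per kb over complex I, 32.0 over complex II, 62.6 over complex III, 144 over complex IV and 134 over complex V. The highest DMSO levels per length within complexes IV, I and V were those of COX7C (367 CPM per kb), NDUFS5 (305) and ATP5IF1 (274), so 2 of the 6 called genes were the most abundant of their complexes on this scale. The lowest were those of NDUFA6 (0.563 CPM per kb), COX6B2 (0.763) and NDUFA3 (1.47). NDUFA6 and NDUFA3 encode subunits of every complex I, and both overlap an exon of a gene on the opposite strand. In GENCODE 29, 35 of 87 members overlap such an exon and 25 overlap an exon of another gene on the same strand. Levels per length rest on 1 transcript per gene, which for SDHC is 13566 bases long.

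The treatment difference was not spread evenly over the sample numbers. The median log2 ratio of the 81 members, tunicamycin over the DMSO sample of the same number, was -0.59 for number 1 and -0.64 for number 5. For numbers 2, 3, 4 and 6 it was -0.13, -0.10, -0.03 and -0.07. Members with a lower tunicamycin value numbered 77, 60, 64, 54, 77 and 51 of 81 for numbers 1 to 6, so more than 50 were lower in each number. In all, 25 of 81 members were lower in 6 of 6 numbers, among them all 6 called genes, whose calls rest on the same samples. The share of all genes lower in 6 of 6 numbers was not computed. The 25 therefore cannot be read as a trait of the members. Tunicamycin 1 had the lowest members of its group, with a median deviation of -0.51 on the log2 scale from the mean of the DMSO samples, and DMSO 5 had the highest of all samples, at 0.51. When all samples numbered 1 and 5 were left out, an alternative added after seeing the data, the median was -0.09 and edgeR called 0 members, beside 0.808% of all genes called lower.

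**Figure D4:**
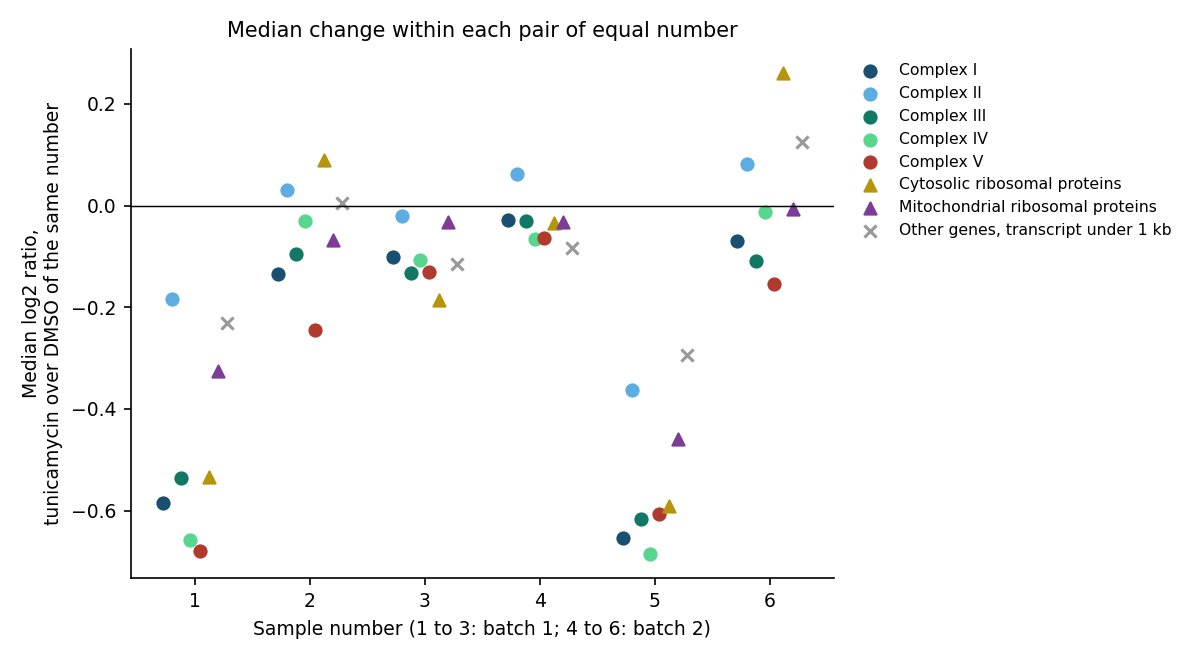
Median log2 ratio (y axis) of tunicamycin to DMSO within each sample number (x axis) for the genes of each complex, for cytosolic and mitochondrial ribosomal protein genes, and for other genes with transcripts under 1 kb. The respiratory complexes other than complex II lie near -0.6 for numbers 1 and 5 and between -0.25 and 0 for the other numbers, and the ribosomal protein genes are low in the same 2 numbers.

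Ribosomal protein genes and other genes with short transcripts showed part of this sample pattern. The cytosolic ribosomal protein genes, a list added after seeing the data, had medians of -0.53 and -0.59 for numbers 1 and 5, and of 0.09, -0.19, -0.03 and 0.26 for numbers 2, 3, 4 and 6. Their fitted median was -0.19 over 78 genes, with 0 called in either direction, and for 77 mitochondrial ribosomal protein genes, added in the same way, it was -0.16, with 1 called lower. Both lists were also high in DMSO 5, with median deviations of 0.50 and 0.32. Other genes with a transcript under 1 kb had a median deviation of 0.23 in DMSO 5 and those of 4 kb or more had -0.19. The part of transcript length in the members' values was not tested.

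Members with long transcripts had smaller fitted changes than members with short ones, and other genes ran the same way. The fitted median was -0.34 over 47 members with a transcript under 1 kb, where other genes had -0.11. It was -0.21 over 20 members of 1 to 2 kb (other genes -0.09), -0.13 over 9 members of 2 to 4 kb (other genes -0.02), and -0.14 over 5 members of 4 kb or more (other genes 0.06). With DMSO 5 left out, the medians of the members were -0.23, -0.13, -0.08 and -0.07 from the shortest to the longest class, and those of the other genes were -0.07, -0.05, -0.01 and 0.03. In each class the members' median lay below that of the other genes, with and without this sample. All 6 called genes have transcripts under 1 kb.

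**Figure D5:**
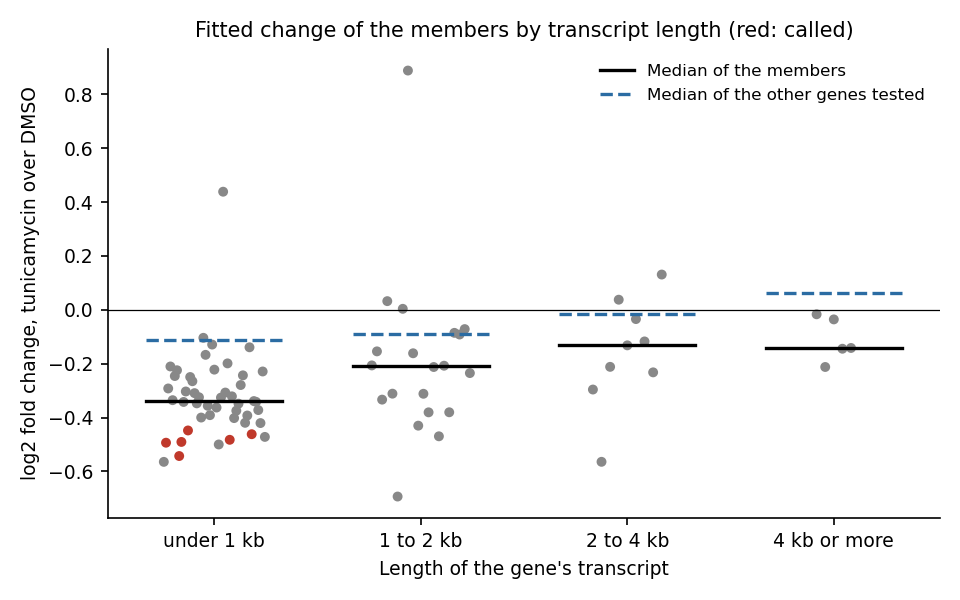
Fitted log2 fold change (y axis) of the 81 tested members by the length class of their transcript (x axis), with called members in red; solid lines are medians of the members and dashed lines medians of all other tested genes of that class. The members' median lies below the other genes' median in all 4 classes, and the red points all lie in the shortest class.

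The median fitted change was of similar size in both sequencing batches. It was -0.26 over members within batch 1 and -0.30 within batch 2, and 71 of 81 members were below 0 in both. The share of all genes below 0 in both is not given here. Within batch 1 the median log2 ratio was -0.59 for number 1, and -0.13 and -0.10 for numbers 2 and 3. Within batch 2 it was -0.64 for number 5, and -0.03 and -0.07 for numbers 4 and 6. The similar medians thus rest largely on numbers 1 and 5. The interaction of treatment and batch was called for 0 members, beside 0% of all genes, and at an unadjusted p below 0.05 for 0 of 81 members and 169 of 17137 genes. The smallest interaction p-values among members, by edgeR without adjustment, were those of NDUFA3 (0.228), ATP5MF (0.268) and ATP5PF (0.276). ATP5MF gave -0.67 in batch 1 and -0.40 in batch 2. With 3 samples a group, neither batch alone gave a called member, beside 0.0354% of all genes called lower in batch 1 and 1.23% in batch 2.

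Genes that serve the respiratory complexes without belonging to the list mostly did not pass the test. Of 55 assembly factors tested, 2 fell and 0 rose, close to the 3.29% of all genes called lower, with a median log2 fold change of -0.10. COA3, an assembly factor of complex IV, fell by 0.59 ± 0.14 on the log2 scale (from 76.8 ± 14.5 to 51.2 ± 9.89 CPM, SD, n = 6 each, adjusted p = 0.0218 by edgeR). UQCC2, an assembly factor of complex III, fell by 0.35 ± 0.09 (adjusted p = 0.0291). Without DMSO 5 both calls were lost (adjusted p = 0.0576 and 0.0619) and the median was -0.05. In that fit 1 assembly factor was called higher, beside 3.5% of all genes. With the block 5 assembly factors were called lower and 3 higher, beside 8.4% and 8.92% of all genes. The subunit genes CYC1 and NDUFAB1, outside the symbol rule, gave -0.21 ± 0.08 and -0.31 ± 0.14, and CYCS, which encodes cytochrome c, gave 0.20 ± 0.12, none past the threshold. These values were -0.18, -0.17 and 0.27 without DMSO 5.

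Among 15 tested regulators of respiratory gene expression, only PPARGC1A passed the threshold. PPARGC1A encodes the coactivator PGC-1alpha, known for raising the transcription of mitochondrial genes. It rose from 11.0 ± 1.29 to 17.9 ± 4.26 CPM (SD, n = 6 each; log2 fold change 0.70 ± 0.16, adjusted p = 0.0173 by edgeR), and without DMSO 5 the adjusted p was 0.0427. The direction of PPARGC1A was thus opposite to that of the 6 called respiratory genes. The transcription factor genes NRF1, GABPA, YY1 and TFAM, chosen here as the factors behind the motifs searched and the mitochondrial genome, had log2 fold changes between -0.03 and 0.09, and without DMSO 5 between -0.08 and 0.11. Of 16 citric acid cycle genes, 1 fell, SUCLG1, a subunit of succinyl-CoA ligase (log2 fold change -0.33 ± 0.09, adjusted p = 0.0490), and the median was -0.04. SUCLG1 was at -0.28 without DMSO 5 and its call was lost (adjusted p = 0.0967).

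Markers of other cell types also differed between the groups. Of 9 duct and liver markers, 6 fell (summed level 777 to 911 CPM in DMSO and 418 to 562 CPM in tunicamycin samples), and of 5 beta cell markers 3 fell (284 to 686 and 213 to 440 CPM). Of 17 heart muscle markers tested, SLN fell and the others did not pass, with sums of 40.1 to 2507 CPM in DMSO and 39.1 to 1368 CPM in tunicamycin samples, highest in the samples numbered 5. Of 14 mesenchymal markers 0 passed with edgeR and 9 were lower with the block, with sums of 1330 to 3289 and 1130 to 2190 CPM. Of 10 alpha cell markers 1 fell, CRYBA2. The median log2 fold change was -1.81 for heart muscle markers and -1.09 for mesenchymal markers. For duct and liver, beta cell and alpha cell markers it was -0.80, -0.80 and -0.15. Without DMSO 5 these 5 medians were, in the same order, -1.47, -1.02, -0.83, -0.71 and -0.16. The calls without DMSO 5 numbered 6 for duct and liver, 2 for beta cell, 0 for heart muscle, 0 for mesenchymal and 1 for alpha cell markers, all lower. No list had a marker without counts in all samples. The part of these cells in the levels of the respiratory genes was not tested.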

How the data were processed

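In the deposited file, whole-number read counts without normalization are given for 28278 gene symbols and 12 samples (6 DMSO, 6 tunicamycin). Per the submitters' processing notes, the authors used cutadapt 4.4, HISAT2 2.1.0 and featureCounts 2.0.6 with GRCh38; no annotation or strand setting is given in the sources used here. Totals ran from 17523442 to 28872269 counts, and depth limits the precision of members under 10 CPM, of which 6 were tested. Pairs of samples within a group differed beyond sampling noise (chi-square per gene 10.9 to 99.6, from genes whose pair of counts summed to at least 20), and each of the 12 counts as a sample of its own. No sample column was left unmapped and no count belonged to an unnamed gene.

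The filterByExpr function of edgeR 4.0.16 (R 4.3.3) kept 17137 genes, and libraries were scaled with TMM factors. CPM uses the scaled library sizes, with a prior count of 1 for log2 CPM. Tunicamycin was compared with DMSO with the quasi-likelihood test of edgeR, batch in the model, Benjamini-Hochberg adjustment over all genes and a two-sided threshold of 0.05. Adjusted p-values are edgeR's unless DESeq2 1.42.0 or voom of limma 3.58.1 is named. The script was tested on simulated counts. Alternatives were other scalings, filters, tools, batch settings, a replicate block and leaving out samples.

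Equal numbers were taken to pair the samples, since every pair correlated above 0.1. Across genes, deviations from the group means of same-numbered samples correlated at 0.39, 0.59, 0.59, 0.35, 0.39 and 0.11 for numbers 1 to 6, and with batch means also removed at 0.49, 0.56, 0.50, 0.12, 0.18 and 0.18. Numbers 4 and 5 then correlated higher with another number (up to 0.18 and 0.27), as number 6 did before batch means were removed (0.16). What a number marks is not in the labels.

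The members and lists were chosen with earlier results of these data known. Named members are all called members, the 2 highest and 2 lowest of each complex, core subunits, isoforms and regulators, and the 3 with the smallest interaction p. Of the other lists, up to 3 called genes are named. Other genes named were chosen after their values were seen, and 1 member that the rule names is not reported here. Gene positions, promoters and exon overlaps come from RefSeq GRCh38.p14 and GENCODE 29, and lengths were found for 94.8% of tested genes.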

Additional observations from a re-analysis of the deposited data

Results flagged for a closer look

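In 13 of 86 sets of 6 samples, taken from the 37 named members tested and the summed complexes in each group, the highest sample lay apart from the nearest other by more than Dixon's 95% limit. Chance gives such a gap in about 1 of 20 independent sets. The 86 sets share the same samples, and some members were named for extreme fold changes. That rate is therefore no measure of whether 13 is more than chance gives here. Of the 13, 8 are high values in DMSO 5. They are NDUFA13 at 344 CPM (next highest 203), NDUFB1 at 65.3 CPM (next 40.9), NDUFV1 at 193 CPM (next 119), SDHB at 49.8 CPM (next 32.8), UQCR11 at 187 CPM (next 108), UQCRHL at 5.15 CPM (next 3.59), ATP5F1D at 119 CPM (next 75.6) and the summed level of complex I at 3783 CPM (next 2737).

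Tunicamycin 2 was high in 3 genes, NDUFS1 at 165 CPM (next 133), SDHD at 69.7 CPM (next 50.6) and UQCRFS1 at 84.3 CPM (next 62.7). DMSO 2 held 168 CPM of NDUFS1 and 69.2 CPM of SDHD, each the highest DMSO value, so that number 2 was high in both groups for these genes. Tunicamycin 4 held 9.55 CPM of NDUFA3 (next 1.30), and DMSO 3 held 3.16 CPM of COX6B2 (next 1.21).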

How the results depend on the processing

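Of the 81 tested members, 6 were called lower and 0 higher by edgeR. In the alternatives that follow, the share of all genes called lower, 3.29% with the main settings, stands in parentheses. The number called lower was 12 with total counts only (3.78%), 11 with upper-quartile factors (4.11%), 11 with a mean CPM of at least 1 as the filter (3.72%), 15 with DESeq2 (6.01%) and 2 without the batch covariate (2.23%). It was 0 within batch 1 (0.0354%), 0 within batch 2 (1.23%) and 0 at an adjusted p below 0.01 (1.03%), and it ran from 1 to 11 on leaving out single samples (1.59% to 3.48%). In alternatives added after seeing the data it was 0 without both samples numbered 5 (1.29%), 1 without both numbered 1 (2.33%) and 0 without numbers 1 and 5 (0.808%). The cause of these shifts was not tested. The number called higher was 1 with DESeq2 and 0 to 1 on leaving out single samples. The median log2 fold change of the members stayed below 0 in every alternative, from -0.336 without DMSO 3 to -0.199 without DMSO 5 on leaving out single samples, and it was -0.0948 without numbers 1 and 5. No alternative gave a member with a called interaction.

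In the paired analysis, with the replicate number as a block (replicate block), 15 members were called lower (8.4% of all genes) and 1 higher (8.92%), and the median was -0.283. It turned the sign of 1 named member, COX7A2L (-0.0095), and ended no call among the 6.

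Signs turned for 9 named members, none of them called, and for the median of complex II, and the cause was not tested. COX7A2L was -0.0011 with RLE factors, -0.011 with total counts only, -0.028 with upper-quartile factors, -0.0017 without a filter, -0.00093 with DESeq2, -0.0052 with limma-voom and -0.0029 in batch 2, and ran from -0.159 to 0.092 on leaving out single samples. In batch 1 alone NDUFA3 was -0.258, NDUFV1 0.029, SDHA 0.066 and UQCRHL -0.034. Without both samples numbered 5, ATP5F1E was -0.0065, NDUFS1 -0.0032, NDUFV1 0.046, SDHA 0.033, SDHB 0.042 and SDHD 0.00032. Without both numbered 1, ATP5F1E was -0.034. Without numbers 1 and 5, ATP5F1E was -0.102, NDUFS1 -0.025, NDUFV1 0.071, SDHA 0.058, SDHB 0.078 and SDHD 0.067. On leaving out single samples, ATP5F1E ran from -0.019 to 0.139, NDUFA3 from -0.438 to 0.62, NDUFS1 from -0.038 to 0.135, NDUFV1 from -0.140 to 0.064, SDHA from -0.121 to 0.037, SDHB from -0.159 to 0.035, SDHD from -0.187 to 0.016 and UQCRHL from -0.011 to 0.271. Depth limits NDUFA3, NDUFA6, COX6B2, UQCRHL, NDUFA4L2 and ATP5F1E, the 6 tested members under 10 CPM.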
